A study of Mus musculus with 9 samples.

Results

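The 10 genes described here encode scinderin (Scin) and structural proteins of the brush border: Vil1, Espn, Pls1, Myo1a, Eps8, Ezr, Cdhr2, Cdhr5 and Ush1c. They are 10 of the 24505 genes in the GRO-seq table and were found by symbol, and regions of altered H3K27me3 were taken by the same gene names. Scin was chosen from its measured GRO-seq difference between RANKL and ENRI, so its values are a description with no test. The other 9 were listed by role, with results of these data already known.

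Transcription was measured by GRO-seq, a nuclear run-on assay that sequences RNA from polymerases already engaged on the genome, in organoid cultures, or mini-guts, of mouse duodenum. The 6 libraries were 2 each of RANKL, labelled as M cells, which carry antigens across the epithelium; ENRI, labelled as absorptive enterocytes; and WENRC, labelled as stem cells. H3K27me3, the repressive histone mark laid down by the Polycomb complex PRC2, was profiled by ChIP-seq with 2 RANKL libraries, which the authors pooled, and 1 WENRC library. The samples hold no ENRI library of this mark. The culture names are abbreviations that the labels do not spell out, and no strain, age, sex, genotype or treatment time is given for any group. ENRI and WENRC libraries 1 and 2 came from mouse 1 and mouse 2, with 1 animal per library. The RANKL libraries carry only a replicate number and hold combined reads of a repeat sequencing, per the file headers, so the sequencing run cannot be told apart from the culture.

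Microvilli of enterocytes are held up by a bundle of parallel actin filaments. Villin, espin and plastin cross-link the bundle, Eps8 sits at its tip, myosin-1a and ezrin tie it to the membrane, and the protocadherins Cdhr2 and Cdhr5 link neighbouring microvilli at their tips through the scaffold harmonin (Ush1c). M cells are known for short, irregular microvilli, and scinderin is a calcium-dependent protein of the gelsolin family that severs and caps actin filaments, as villin also can.

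The sequences just upstream of 4 of these genes are shown because the data bear on them: Scin and Espn carry a region of higher H3K27me3 at their start in RANKL, and Vil1 and Cdhr5 hold a match to a motif searched for. Each is the 250 bases before the start of the RefSeq transcript in GRCm38.p6, 5′ to 3′ on the strand of the gene. For Scin (chr12:40134229-40134478, minus strand) and the outermost of 3 Espn starts (chr4:152152390-152152639, minus strand) capitals mark CG dinucleotides.
Scin: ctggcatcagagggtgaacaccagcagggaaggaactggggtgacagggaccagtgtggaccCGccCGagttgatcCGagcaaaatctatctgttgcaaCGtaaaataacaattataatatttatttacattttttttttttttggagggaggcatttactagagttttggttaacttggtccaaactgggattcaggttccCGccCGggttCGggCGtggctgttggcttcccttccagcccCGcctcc
Espn: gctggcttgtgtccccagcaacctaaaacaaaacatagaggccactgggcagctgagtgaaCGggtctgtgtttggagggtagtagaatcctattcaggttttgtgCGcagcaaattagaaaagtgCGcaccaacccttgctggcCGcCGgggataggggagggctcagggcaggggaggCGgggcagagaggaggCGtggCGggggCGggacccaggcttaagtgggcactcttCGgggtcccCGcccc
The Scin window held 9 CG dinucleotides, more than in 59.7% of the 32851 windows of that length, whose median was 6. The Espn window held 11, more than in 64.4% of windows.

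In the Vil1 window (chr1:74409134-74409383, plus strand) capitals mark a CArG box, the motif bound by serum response factor, from 73 to 64 bases before the start. In Cdhr5 (chr7:141276787-141277036, minus strand) they mark a match to GNNATAAA, the motif searched for the intestinal CDX factors, from 41 to 34 bases before the start.
Vil1: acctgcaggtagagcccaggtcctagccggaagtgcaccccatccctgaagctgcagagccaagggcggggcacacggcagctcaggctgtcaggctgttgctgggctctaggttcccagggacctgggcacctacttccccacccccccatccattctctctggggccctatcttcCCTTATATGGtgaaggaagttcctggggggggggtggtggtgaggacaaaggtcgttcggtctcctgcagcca
Cdhr5: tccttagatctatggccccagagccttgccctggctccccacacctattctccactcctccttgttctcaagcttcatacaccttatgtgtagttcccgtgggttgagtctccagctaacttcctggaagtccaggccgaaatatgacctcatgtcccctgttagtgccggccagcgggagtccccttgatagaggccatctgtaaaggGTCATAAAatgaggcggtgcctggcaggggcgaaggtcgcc
CArG boxes stood in 1.47% of all windows and GNNATAAA in 11.2%, counting either strand. Of the 10 genes 9 had a window (11 in all, 3 of them of Espn), and 1 of the other Espn windows also matched GNNATAAA. Of the other motifs searched, that of HNF4 was CAAAGTCCA (0.384% of all windows), that of TATA boxes was TATAAA (12.4%) and that of GATA factors was AGATAA (9.99%), and none of the 11 windows held them on either strand. A match is a run of letters and not a site shown to be bound.

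Scin was the gene with the lowest RANKL value against ENRI of all 16563 genes tested (those with at least 2 libraries at or above log2 of 10). Its log2 value, normalized by the authors and summed over the whole gene (chr12:40786358-40860815 of mm9, minus strand), was 5.88 and 6.04 in RANKL, 11.78 and 12.79 in ENRI, and 7.36 and 6.31 in WENRC. Both ENRI libraries stood far above the other 4, and the RANKL pair lay below the WENRC pair. The mean was 12.29 ± 0.710 in ENRI, 5.96 ± 0.107 in RANKL and 6.84 ± 0.747 in WENRC (SD, n = 2), so that ENRI was 80.2-fold above RANKL and 43.7-fold above WENRC on the linear scale. RANKL minus ENRI was -6.33, WENRC minus ENRI was -5.45, and RANKL minus WENRC was -0.88, which is little more than the SD of WENRC. Within the animals, WENRC minus ENRI was -4.42 in mouse 1 and -6.48 in mouse 2. In the order of changes from the lowest, Scin was number 1 for RANKL minus ENRI, number 4 for WENRC minus ENRI and number 779 for RANKL minus WENRC. The 2 differences against ENRI share the ENRI libraries. The folds above come from deposited values whose transform is not named. The authors' deposited table gives log2 changes that are larger in size, of -7.53 and -6.12 for RANKL and WENRC against ENRI.

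Compared per kilobase of gene, on the scale of log2 value minus log2 kb, Scin in ENRI had a mean level of 6.07. This placed it 7th of the 10, beside Pls1 at 6.07 and above Ush1c (5.88), Eps8 (5.78) and Espn (4.93), while Vil1 (7.61), Ezr (7.50) and Cdhr5 (7.29) were highest. In RANKL and WENRC Scin was last of the 10 by a wide margin, at -0.26 and 0.62. The next lowest was Espn in both, at 3.42 and 3.27. Ezr (6.93), Cdhr5 (6.65) and Vil1 (6.64) led in RANKL, and Vil1 (6.61) and Ezr (6.49) led in WENRC. With a spread between ENRI libraries of up to 0.710, the ENRI levels of Scin, Pls1, Ush1c and Eps8 were not separated.

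**Figure D1:**
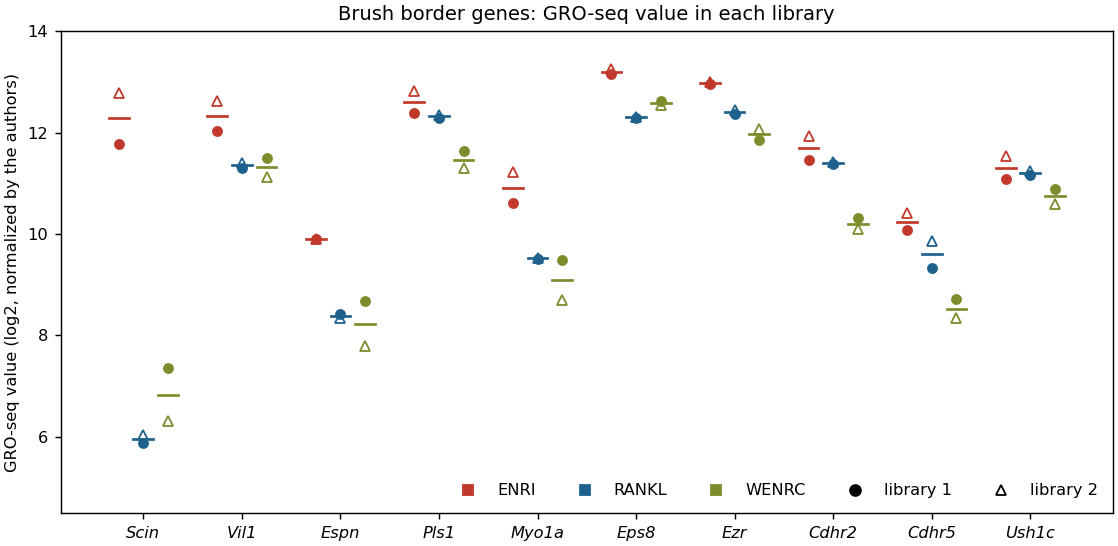
GRO-seq value of each gene (y axis, log2, normalized by the authors) in each library, with filled circles for library 1, open triangles for library 2 and a bar for the mean of the 2. Scin stands at 11.78 and 12.79 in ENRI and at 5.88 and 6.04 in RANKL, and the other 9 genes stay between 7.79 and 13.26.

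Of the 6 genes whose profile over the 6 libraries was most like that of Scin, Rbp2 and Fabp2 are in the list of enterocyte markers used here. Likeness was the root mean square (RMS) difference of log2 values after subtracting each gene's own mean, and the 6 closest were Rbp2 (0.452), a retinol-binding protein, Slc5a4b (0.645), Pck1 (0.668), a gluconeogenic enzyme, Fabp2 (0.692), a fatty acid-binding protein, Spink1 (0.857), a trypsin inhibitor, and Ugt2b5 (0.933), a glucuronosyltransferase. Rbp2 had 7.52 and 7.49 in RANKL, 12.31 and 13.52 in ENRI and 9.11 and 7.52 in WENRC. The 6 libraries share their normalization and, for ENRI and WENRC, their animals, so these distances only describe likeness. Among the other brush border genes, Myo1a ranked 377th (2.09) and Espn 378th (2.09) in likeness to Scin, Vil1 966th, and Ush1c last of them at 4153rd (2.69). The values were not scaled, so a gene with a like pattern but smaller changes ranks lower. The Pearson correlation with Scin was 0.978 to 0.997 for the 6 closest. It was 0.981 for Eps8, 0.952 for Vil1, 0.949 for Espn, 0.921 for Myo1a and 0.804 for Ezr. For Cdhr5 it was 0.695, for Pls1 0.607, for Cdhr2 0.562 and for Ush1c 0.534.

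The comparison of RANKL with ENRI asks whether brush border genes are transcribed differently in the M cell and enterocyte cultures. Of the 9 genes other than Scin, 4 were lower in RANKL and 0 higher by limma at an FDR under 0.05: Espn, Myo1a, Vil1 and Eps8, all of the microvillar actin core. Over all tested genes 10.5% were called lower, 10.4% higher and 20.9% in either direction. The other 5 (Cdhr5, Ezr, Cdhr2, Pls1 and Ush1c), which include all 3 adhesion complex genes, did not pass. All 9 changes were negative, with a median of -0.64 against -0.00 over all tested genes. In 8 of the 9 both RANKL libraries lay below both ENRI libraries, a separation seen in 32.3% of all genes.

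Espn, which encodes the actin-bundling protein espin (chr4:151494985-151526316, minus strand), had 8.43 and 8.34 in RANKL, 9.89 and 9.90 in ENRI and 8.68 and 7.79 in WENRC. Its 2 ENRI libraries were nearly equal and above all 4 others, among which the WENRC pair spanned the RANKL pair. RANKL was lower than ENRI by a log2 difference of -1.51 (SE 0.286, limma FDR 0.0185), which is 2.85-fold on the linear scale. Myo1a, the membrane-linking motor myosin-1a (chr10:127142312-127157996, plus strand), had 9.51 and 9.54 in RANKL, 10.61 and 11.23 in ENRI and 9.48 and 8.70 in WENRC. Here too both ENRI libraries were above the other 4, and the RANKL libraries stood just above the WENRC libraries. The RANKL minus ENRI change was -1.39 (SE 0.311, limma FDR 0.0289).

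Vil1, villin (chr1:74455958-74482134, plus strand), had 11.31 and 11.40 in RANKL, 12.03 and 12.62 in ENRI and 11.50 and 11.13 in WENRC. RANKL fell inside the range of WENRC and below ENRI, with a RANKL minus ENRI change of -0.97 (SE 0.242, limma FDR 0.0390). Its interval shares 50 bp with the opposite-strand gene Usp37, and none of the other 9 overlaps a listed gene. Eps8, the tip capping and bundling protein (chr6:137425766-137597806, minus strand), varied little between replicates in any culture. It had 12.30 in both RANKL libraries, 13.15 and 13.26 in ENRI and 12.63 and 12.55 in WENRC, and so was lowest in RANKL, with no overlap between any 2 cultures. RANKL minus ENRI was -0.91 (SE 0.157, limma FDR 0.0147).

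Pls1, plastin 1 (also called fimbrin; chr9:95653061-95745698, minus strand), is the third actin bundler of the core. Its values were 12.28 and 12.36 in RANKL, 12.39 and 12.82 in ENRI and 11.63 and 11.31 in WENRC, so that the 2 RANKL libraries lay just below ENRI and well above WENRC. The RANKL minus ENRI change was -0.29 (95% interval -0.80 to 0.23, limma FDR 0.376). Ezr, ezrin (chr17:6942480-6987129, minus strand), had 12.37 and 12.46 in RANKL, 12.95 and 13.01 in ENRI and 11.86 and 12.08 in WENRC, with the 3 cultures apart from each other and RANKL in the middle. Its RANKL minus ENRI change of -0.57 (SE 0.162) had a limma FDR of 0.0561, and the authors' deposited table gives an adjusted p of 0.0456.

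Of the 3 genes of the intermicrovillar adhesion complex none passed the test between RANKL and ENRI. Cdhr2 (chr13:54802824-54838023, plus strand), a protocadherin of the tip links, had 11.37 and 11.43 in RANKL, 11.45 and 11.94 in ENRI and 10.32 and 10.10 in WENRC. The WENRC pair was far below the other 4 libraries, and RANKL minus ENRI was -0.29 (95% interval -0.78 to 0.19, limma FDR 0.333). Its partner protocadherin Cdhr5 (chr7:148454984-148462685, minus strand) had 9.33 and 9.87 in RANKL, 10.07 and 10.41 in ENRI and 8.72 and 8.34 in WENRC. The cultures did not overlap, and RANKL minus ENRI was -0.64 (95% interval -1.23 to -0.05, limma FDR 0.116). Ush1c, the scaffold harmonin (chr7:53450721-53493860, minus strand), had 11.16 and 11.24 in RANKL, between the 11.09 and 11.54 of ENRI, and 10.89 and 10.59 in WENRC. Its RANKL minus ENRI change was -0.11 (95% interval -0.60 to 0.38, limma FDR 0.729). No test of adhesion complex genes against actin core genes was made.

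The SD of the replicate difference over all tested genes was 0.220 in RANKL, 0.699 in ENRI and 0.421 in WENRC. With 1 library left out, the median change of the 10 genes ran from -0.91 to -0.61. All 9 changes stayed negative, except that of Ush1c without ENRI library 2 (0.11). How many of the 9 passed changed with the library left out, as did the number over all tested genes. The call of Vil1 was lost when the ENRI and RANKL libraries were fitted alone (limma FDR 0.0678), where 1925 of all tested genes were called. The authors' deposited table calls 5 of the 9 lower, adding Ezr, against 11.0% of all genes.

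**Figure D2:**
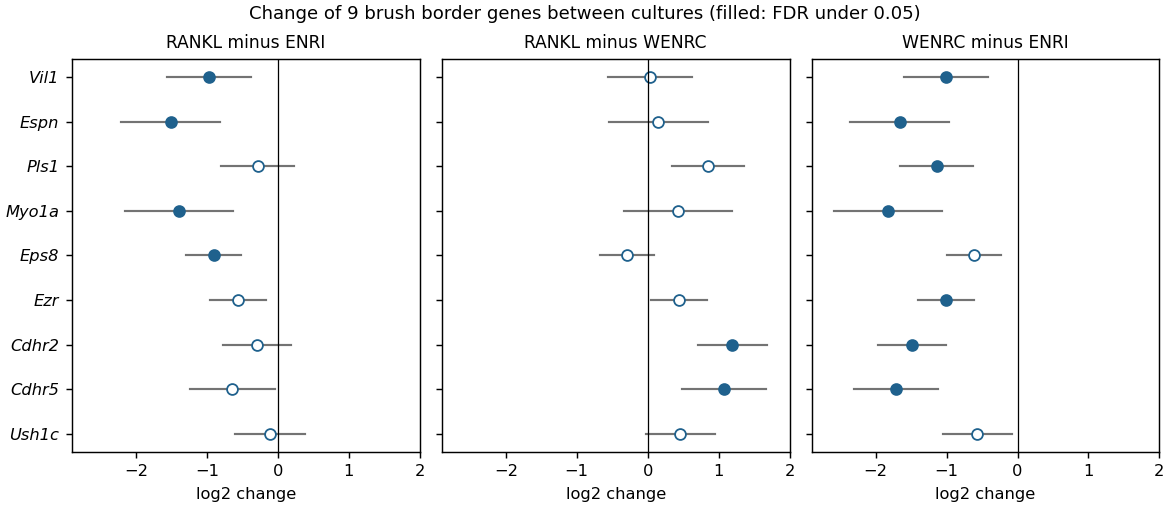
Log2 change of the 9 genes other than Scin in the 3 comparisons (x axis), with 95% intervals from limma, filled where the FDR is under 0.05. Against ENRI, 4 genes are filled in RANKL and 7 in WENRC, and for RANKL minus WENRC the filled genes are Cdhr2 (1.19) and Cdhr5 (1.07).

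RANKL against WENRC compares the M cell and stem cell cultures. Of the 9 genes 2 were higher in RANKL and 0 lower by limma, both protocadherins of the tip links, against 8.53% of all tested genes called higher, 3.62% lower and 12.1% in either direction. Cdhr2 was higher by 1.19 (SE 0.197, limma FDR 0.0169) and Cdhr5 by 1.07 (SE 0.243, limma FDR 0.0421). The call of Cdhr5 was lost with no filter on low values (limma FDR 0.0507), with no variance trend (0.0522) and with the replicate number as a block (0.0620). The median of the 9 changes was 0.44, against -0.01 over all tested genes. In 6 of the 9 both RANKL libraries lay above both WENRC libraries (34.1% of all genes), and in 1, Eps8, both lay below (34.5%).

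Pls1 had a RANKL minus WENRC change of 0.85 (limma FDR 0.0526), Ush1c of 0.46 (FDR 0.193) and Ezr of 0.44 (FDR 0.134). The other 4 actin core genes did not pass either. Vil1 had 0.04 (95% interval -0.55 to 0.63, limma FDR 0.938) and Espn 0.15 (-0.55 to 0.85, FDR 0.773). Myo1a had 0.43 (-0.33 to 1.19, FDR 0.414) and Eps8 -0.29 (-0.67 to 0.10, FDR 0.285). The signs of the Vil1 and Ezr changes turned under quantile normalization, at -0.39 and -0.03, and that of Vil1 also under upper quartile recentring, at -0.08. With 1 library left out, the median change of the 10 genes ran from 0.18 to 0.60. The number of the 9 that passed changed with the library left out, as it did over all tested genes. With the 4 compared libraries fitted alone, 5 were higher (Cdhr2, Cdhr5, Pls1, Ezr and Ush1c). In that fit 5194 of the 16563 tested genes were called in either direction. The authors' deposited table calls the same 5 higher, against 16.7% of all genes, and Eps8 lower, against 11.1%.

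WENRC against ENRI compares the stem cell and enterocyte cultures, each with a library from both mice. Of the 9 genes 7 were lower in WENRC and 0 higher by limma, across the actin core, the membrane linker Ezr and both protocadherins, against 9.74% of all tested genes called lower, 4.85% higher and 14.6% in either direction. Myo1a had the largest change at -1.83 (SE 0.311, limma FDR 0.0199), then Cdhr5 at -1.71 (FDR 0.0138), Espn at -1.66 (FDR 0.0205) and Cdhr2 at -1.49 (FDR 0.0126). Smaller changes that passed were Pls1 at -1.14 (limma FDR 0.0238), Vil1 at -1.01 (FDR 0.0446) and Ezr at -1.01 (FDR 0.0174). Eps8 at -0.62 (limma FDR 0.0513) and Ush1c at -0.57 (FDR 0.110) did not pass. The median of the 9 was -1.14, against -0.01 over all tested genes.

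Both WENRC libraries lay below both ENRI libraries for all 9 genes, a separation found in 29.2% of all genes. It follows from this separation that the WENRC minus ENRI difference within an animal was below 0 in both mice for each of them. The difference was larger in mouse 2 for 8 of the 9: Myo1a had -1.12 in mouse 1 and -2.53 in mouse 2, Espn -1.21 and -2.11, and Ush1c -0.20 and -0.94. Ezr was the exception, with -1.09 and -0.93. With the mouse or replicate number as a block 6 of the 9 passed, and Vil1 did not (limma FDR 0.0716). Vil1 was also lost with no filter on low values (limma FDR 0.0554), upper quartile recentring (0.0526), quantile normalization (0.0923) and no variance trend (0.0523). Ezr was lost under quantile normalization, at a change of -0.51 (limma FDR 0.0965). Eps8 was gained with the stricter filter (limma FDR 0.0348), no variance trend (0.0469) and robust fitting (0.0393). With the ENRI and WENRC libraries fitted alone 0 of the 9 passed (smallest limma FDR 0.0581, 7 with an unadjusted p under 0.05). In that fit 0 of all tested genes passed either. With any 1 library left out all 9 changes stayed negative. How many passed changed with the library left out, as did the number over all tested genes. The authors' deposited table calls the same 7 lower, against 9.24% of all genes.

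The markers of the labelled cell types moved with these comparisons. The log2 of the summed level of 10 enterocyte markers was 15.96 and 16.60 in ENRI, 14.77 and 14.92 in RANKL and 13.33 and 12.26 in WENRC, with 5 of 10 lower in RANKL than in ENRI and 8 of 10 lower in WENRC. For 9 M cell markers the sum was 13.39 and 13.46 in RANKL and between 10.23 and 10.87 in the other 4 libraries, with 9 of 9 higher in RANKL than in ENRI. Stem cell markers summed to 13.75 and 13.86 in WENRC, 13.41 and 13.51 in RANKL and 10.90 and 11.35 in ENRI, with 4 of 6 higher in RANKL and 6 of 6 in WENRC against ENRI. Between RANKL and WENRC they were mixed, with 1 of 6 higher and 1 lower in RANKL. Lgr5 had 8.75 and 8.84 in RANKL, 8.89 and 8.51 in ENRI and 11.64 and 11.99 in WENRC. Olfm4 had 10.90 and 11.05 in RANKL, 5.14 and 7.41 in ENRI and 8.83 and 9.12 in WENRC. Tnfrsf19 had 10.89 in both RANKL libraries, 6.57 and 6.06 in ENRI and 8.92 and 9.48 in WENRC. In RANKL and WENRC, Axin2 had 11.93 and 12.08 against 11.64 and 12.02, and Smoc2 had 11.42 and 11.48 against 12.64 and 12.39. Ascl2 had 4.93 and 5.19 against 5.24 and 5.30. Which of the 6 passed is not given here. Tuft cells also carry villin-rich microvilli, and of 6 tested tuft markers 3 were higher in RANKL than in ENRI (sums of 9.95 and 10.01 against 8.95 and 8.78). Against WENRC, 5 of 10 enterocyte markers and 3 of 6 goblet markers were higher in RANKL, and 4 of 6 goblet markers were lower in WENRC than in ENRI. Paneth markers were higher in RANKL than in ENRI for 2 of 5 and enteroendocrine markers for 1 of 5. In these bulk cultures fewer cells of a type and less RNA per cell cannot be told apart, and the part of these markers in the brush border results was not tested. The 5 immune markers summed to between 7.50 and 8.06 in all 6 libraries, all 5 mesenchymal markers were below the filter, and no marker of any list was at 0 in all libraries.

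The other genes of the pathway were described from lists of related genes, of whose named members' calls 193 of 624 values were lost under the alternatives. Over all tested genes 10.5% were called lower and 10.4% higher in RANKL than in ENRI. For WENRC against ENRI these shares were 9.74% and 4.85%. Of 11 actin core genes beside the 5 above, 4 were lower in RANKL than in ENRI (median -0.38) and 5 lower in WENRC (median -0.62). Cobl, an actin nucleator of the brush border, had 12.15 and 12.12 in RANKL, 13.46 and 13.82 in ENRI and 11.60 and 11.39 in WENRC, with limma FDRs of 0.00603 for RANKL and 0.00663 for WENRC against ENRI. Eps8l2, a paralog of Eps8, changed by -1.06 in RANKL and -1.30 in WENRC against ENRI. Eps8l3, another paralog, had -0.85 (limma FDR 0.0638) and fell in WENRC at -1.93.

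Among the 6 other members of the gelsolin and villin family, Gsn (gelsolin) was lower in RANKL, with 7.08 and 6.71 against 9.35 and 8.27 in ENRI and 8.29 and 8.50 in WENRC. Its change was -1.92 against ENRI (limma FDR 0.0183) and -1.50 against WENRC (FDR 0.0495). Avil (advillin, also a tuft cell gene) was higher in RANKL than in ENRI by 0.92 (limma FDR 0.0318) and Svil (supervillin) by 0.77 (FDR 0.0199). Capg had -0.79, Vill -0.60 and Flii 0.14, none of which passed. Against ENRI, 0 of the 6 passed in WENRC (smallest limma FDR 0.0869, for Svil, and 4 with an unadjusted p under 0.05), where Scin stood at -5.45 and Vil1 at -1.01.

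Of the 10 ERM relatives and linkers beside ezrin, 2 were lower and 1 higher in RANKL than in ENRI. Slc9a3r1, the scaffold that binds ezrin, fell by 1.44 on the log2 scale (limma FDR 0.0119), and Stk10, a kinase that phosphorylates ERM proteins, fell by 1.55 (FDR 0.00447). The gene that was higher, named after its values were seen, was Slk, a kinase related to Stk10, at 1.40 (limma FDR 0.0408). In WENRC 5 of the 10 were lower than in ENRI, Clic5 most of all at -2.44. Clic5, a partner of ezrin, had 11.79 and 11.78 in RANKL, 11.54 and 12.37 in ENRI and 9.76 and 9.26 in WENRC, so it was 2.28 higher in RANKL than in WENRC (limma FDR 0.00965). In the adhesion complex the 3 other tested genes had RANKL minus ENRI changes of -0.44 (Anks4b), -0.07 (Myo7b) and -0.33 (Calml4), none of which passed. Anks4b, a scaffold partner of harmonin, was lower in WENRC than in ENRI, with a change of -1.48 (limma FDR 0.0320), and Ush1g was below the filter.

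Of the 10 other myosins, 3 were lower and 1 higher in RANKL than in ENRI. Among the lower were Myo1d (-1.19), a class I myosin also found in the brush border, and the non-muscle myosin Myh10 (-1.10). Among 12 genes of the terminal web and keratins 3 were lower in RANKL than in ENRI, all of them keratins. Krt20 changed by -2.79 and Krt8 by -1.66, and Krt19 had 10.09 and 10.21 in RANKL against 12.39 and 11.92 in ENRI. In WENRC 4 of the 12 were lower, and Krt20, a marker of differentiated villus cells, was lowest at -3.96.

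Of 3 paralogs of the bundling proteins 2 were higher in RANKL than in ENRI, Lcp1 (L-plastin) by 1.49 and Espnl (espin-like) by 1.40, and Pls3 had 0.14 and did not pass. Lcp1 was also higher in WENRC than in ENRI, by 1.39 (limma FDR 0.0468), and its RANKL minus WENRC change was 0.10 (FDR 0.888). Espnl was higher in RANKL than in WENRC, by 0.94 (limma FDR 0.0283). Among 11 actins and general actin regulators 3 were lower in RANKL than in ENRI, including Actb at -1.43 and Cap1 at -0.48, and 3 in WENRC, at -1.12 for Actb, -0.64 for Cap1 and -0.63 for the formin Diaph1. The medians of the 11 were -0.04 and -0.33.

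**Figure D3:**
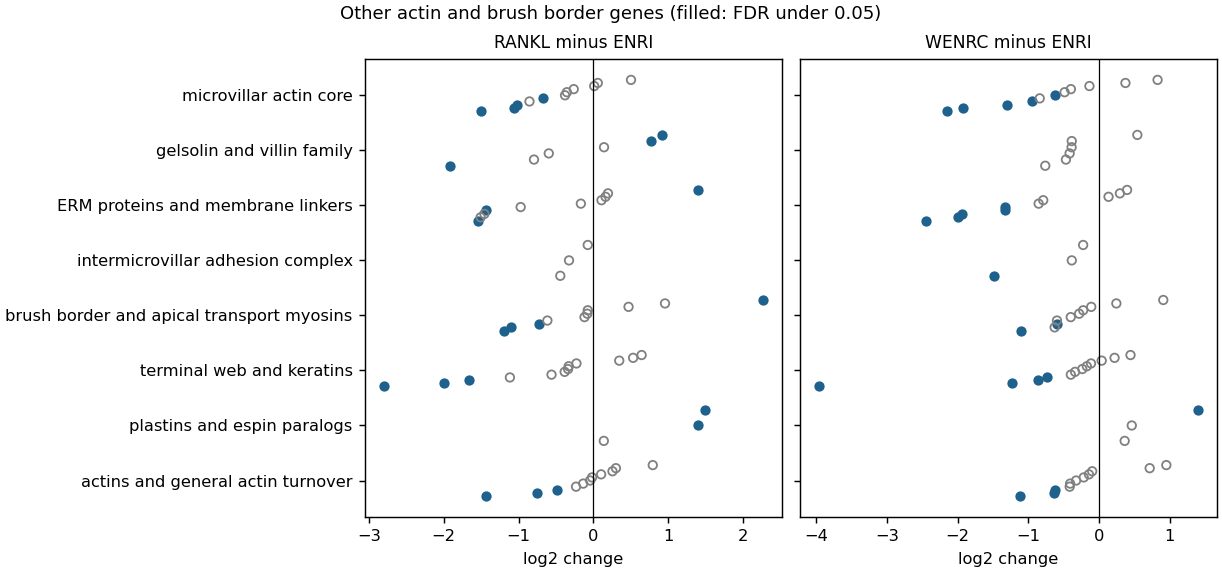
Log2 change of the related genes other than the 10 (points, x axis) by list (y axis) for RANKL minus ENRI and WENRC minus ENRI, filled where limma's FDR is under 0.05. Cobl is the lowest point of the actin core at -1.51 and -2.15, and the paralogs Lcp1 and Espnl are the filled points above 0 among plastins and espins in RANKL.

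The H3K27me3 tables list regions where 1 culture exceeded the other by a fold of at least 2, as called by the authors, so each holds 1 direction. Scin and Espn were the 2 of the 10 genes with regions higher in RANKL, and Eps8 had 1 higher in WENRC. The other 7 had 0 regions in either table, which list 35798 RANKL-higher and 13607 WENRC-higher regions in all. Over all genes in the GRO-seq table, 33.7% had a RANKL-higher region and 24.0% a WENRC-higher one. RANKL was pooled (32.7 M tags) and WENRC was 1 library (36.3 M tags), so these differences have no replicate check. A gene without a region may carry the mark at a like level in both cultures, or not at all.

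Scin had 19 RANKL-higher regions, 10 in the gene and 9 upstream. They ran over chr12:40811560-40890657 of mm9, from 29842 bp upstream of the listed start to 49255 bp into the gene, and covered 42.1% of that 79097 bp and 24.8% of the gene. A further 2 RANKL-higher regions that overlap the gene carry another gene name and are not in these counts. The span held 0 WENRC-higher regions. Summed over 33309 bp, RANKL had 1803 tags and WENRC 697.5 after the authors' scaling, or 54.1 against 20.9 tags per kb. The authors' folds ran from 2.13 to 28.88, with a median of 2.72 against 2.92 in the whole table. Of the 8497 gene names with a RANKL-higher region, 2.78% had as many regions as Scin or more, and 0.318% had as much covered length.

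The region over the Scin start, chr12:40860222-40862291, had 138 RANKL and 61.2 scaled WENRC tags, a fold of 2.25, and reached from 1476 bp upstream to 593 bp inside the gene; the CG-marked Scin sequence above lies directly upstream of a RefSeq start of this gene in the other build. The longest, chr12:40811560-40818353 in intron 4, had 395 and 177.3 tags (fold 2.23). The highest fold, 28.88, came from 26 tags against 0.9 at chr12:40848850-40849502 in intron 3, on a LINE element, and rests on a WENRC value near 0. WENRC thus carried tags in nearly all of these regions, at a lower density than RANKL, as the selection by fold required. A repeat element was named at 11 of the 19, against 29.4% of regions in the table, and mapping of reads in repeats is not given in the sources used here.

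Espn had 7 RANKL-higher regions, all within the gene or at its start, covering 7427 bp. They held 443 RANKL against 159.3 scaled WENRC tags, or 59.6 against 21.4 per kb, with folds from 2.17 to 5.28 and a median of 2.78. The region at the listed start, chr4:151525753-151528117, had 180 against 70.2 tags (fold 2.56) and ran from 1801 bp upstream to 563 bp inside. Of gene names with a RANKL-higher region 17.2% had as many as Espn. The single region of Eps8, chr6:137610674-137611174, lay 13118 bp upstream of the nearest start and had 3 RANKL against 18.9 scaled WENRC tags (fold 6.3).

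Set beside transcription, Scin and Espn had regions with more H3K27me3 in RANKL than in WENRC, a direction fixed by how the regions were selected. H3K27me3 over the whole gene was not counted here. The whole-gene GRO-seq difference between these cultures was -0.88 for Scin and 0.15 for Espn on the log2 scale. Both genes were lower in RANKL and in WENRC than in ENRI, by -6.33 and -5.45 for Scin and -1.51 and -1.66 for Espn. No ENRI library of H3K27me3 was among the samples. Vil1, Myo1a and Eps8, the other genes lower in RANKL than in ENRI, had 0 RANKL-higher regions.

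**Figure D4:**
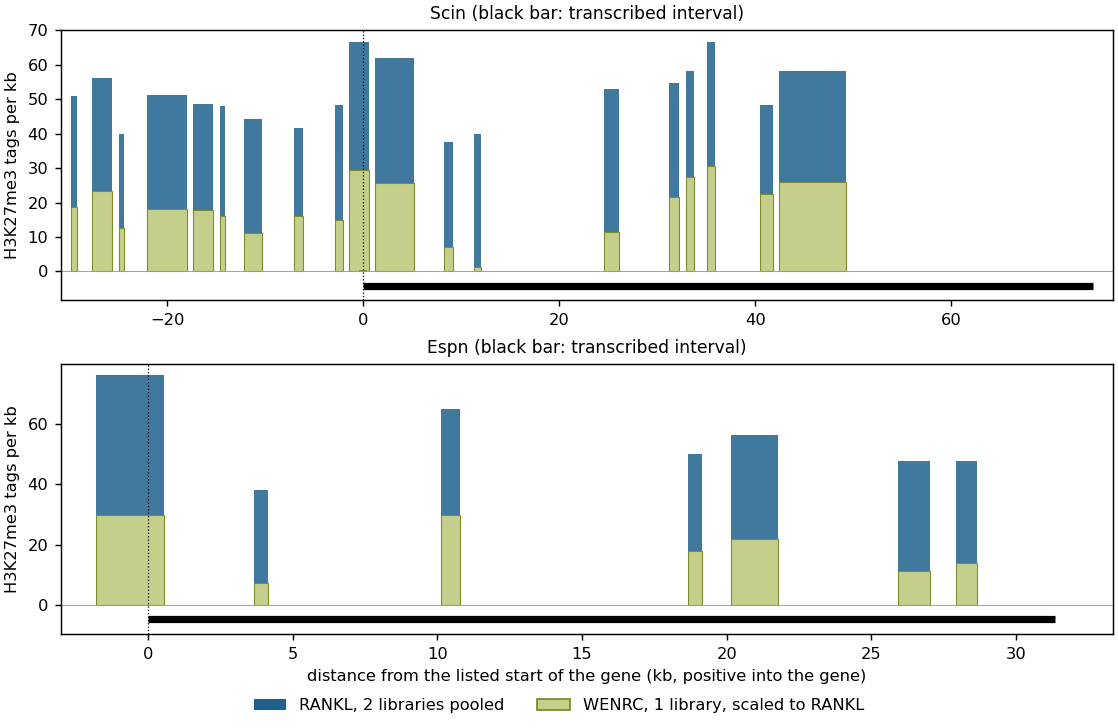
H3K27me3 tags per kb (y axis) in the RANKL-higher regions of Scin and Espn against distance from the listed start (x axis, kb, positive into the gene), with pooled RANKL in blue, scaled WENRC drawn in front in green and the transcribed interval as a black bar. The 19 Scin regions spread over both sides of the start, and the 7 Espn regions lie at the start and within the gene.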

How the data were processed

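The deposited GRO-seq values are log2. Reads were counted per RefSeq gene of mm9, whole gene, 1 transcript each, with HOMER's analyzeRepeats.pl, and all culture pairs compared with getDiffExpression.pl, per the file headers. The log2 fold changes and p-values of that step are deposited too; their sign (second minus first culture) was turned. The transform is not named. The values look like a regularized logarithm, which understates changes of low genes. The submitters' processing notes name Bowtie2 2.3.4.1, HOMER and DESeq2 without roles. Strand handling is not given in the sources used here, and GRO-seq depth is unknown. For H3K27me3, the deposited tables hold tag counts for pooled RANKL, a signal for WENRC that the authors scaled by 0.9, and the authors' fold as a ratio of tags, from HOMER peaks called against the opposite culture, per the file headers.

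Computed here was a limma fit (3.58.1, R 4.3.3; variance trend, 6 libraries, 3 group means, two-sided, Benjamini-Hochberg over 16563 genes, called at FDR under 0.05). The fit was tested on simulated data in which all 6 libraries of a gene had the same spread. The spread in the real data differed between cultures, and that test does not cover this difference. Errors are SDs of 2 libraries or limma SEs. Nothing says that the RANKL libraries came from separate animals or cultures, so p-values measure the spread between these samples, which may be technical. ENRI and WENRC share mouse numbers, and their same-numbered deviations correlated at 0.414 across genes; the 2 dates in the header follow the mice. RANKL numbers pair with nothing.

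The 10 genes, the related gene lists, the markers and the motifs were chosen with earlier results of these data known. From each list the 3 genes with the smallest unadjusted p against ENRI are named, all of the gelsolin family, and the 6 genes closest to Scin; 1 gene under this rule is not reported here. Promoters are RefSeq, GRCm38.p6, related to mm9 only through the gene start. Alternatives covered the libraries fitted, the block, filters, scaling, trend, robust fitting, the authors' tests, each library left out and, for regions, fold, distance and overlap.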

Additional observations from a re-analysis of the deposited data

How the results depend on the processing

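For the 10 genes, 369 of 480 values under an alternative counted as the same. For the 9 genes other than Scin, that meant the same direction and the same side of an FDR of 0.05. A gene not called in the main fit thus counted as the same by staying uncalled. Only genes called there could lose a call: 4 for RANKL minus ENRI, 2 for RANKL minus WENRC and 7 for WENRC minus ENRI. Fitting only the 4 libraries compared, the block, filters, trend and robust fitting left every log2 change as it was. The direction, and for Scin the label, was fixed under those settings. The FDR was limma's, or the authors' adjusted p for their deposited values. For Scin, it meant a log2 change within its pooled replicate SD of the main value. Of the rest, 72 lost and 30 gained a call, 7 turned sign and 2 (the authors' deposited log2 changes of Scin, -7.53 and -6.12) moved. Fitting only the 4 libraries compared gave 1925 genes called for RANKL minus ENRI (3464 with 6 libraries), 5194 for RANKL minus WENRC (2012) with 5 of the 9 genes, and 0 for WENRC minus ENRI (2416; 4074 at an unadjusted p under 0.05) with 0 of the 9. With the replicate block added to those fits the counts were 1423 with 2 of the 9, 4686 with 3, and 124 with 0. The replicate block over 6 libraries gave 1 of the 9 for RANKL minus WENRC and 1506 genes for WENRC minus ENRI, where the numbers are mice; it also lost Vil1 for RANKL minus ENRI (FDR 0.0633), where the samples share only a number. No filter, or no variance trend, left 1 of the 9 for RANKL minus WENRC, and the authors' deposited table called 6 there and 4604 genes in all. Quantile normalization took the median of the 10 genes to 0.12 (from 0.44) for RANKL minus WENRC and to -0.94 (from -1.31) for WENRC minus ENRI, and turned Vil1 (-0.39) and Ezr (-0.034) for RANKL minus WENRC, as upper quartile recentring did Vil1 (-0.0751). Recentring moved the median of all genes to -0.12 for RANKL minus WENRC and 0.10 for WENRC minus ENRI, and the share of calls that were higher to 53.3% and 54.1% (58.7% and 51.7% by quantiles), from 70.2% and 33.2%. Leaving out 1 library gave 0 to 7 of the 9 genes and 64 to 6966 of all genes for RANKL minus ENRI, 0 to 5 and 0 to 5176 for RANKL minus WENRC, and 0 to 9 and 0 to 6650 for WENRC minus ENRI. The medians then ran from -0.91 to -0.61, 0.18 to 0.60, and -1.51 to -1.11. Ush1c ran from -0.33 to 0.11 for RANKL minus ENRI, turning sign without ENRI library 2. For RANKL minus WENRC, Vil1 ran from -0.15 to 0.23, turning without RANKL library 2 or WENRC library 2, and Espn from -0.29 to 0.60, turning without WENRC library 2. A library left alone in its culture was assumed to vary like the others. Of the 27 H3K27me3 regions 6 had a fold of at least 4 and 8 lay within 5 kb of a start, 3 of the 19 Scin regions in each case. Counted by position in place of gene name, 20 regions overlapped the 10 genes, 12 of them Scin, including regions that carry another gene name. The cause of these differences was not tested. For the named related genes 431 values kept their call and 193 lost it. Regions of few tags limit the folds, and GRO-seq depth is unknown.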

Other observations

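H3K27me3 regions were also counted at the 66 related actin and brush border genes other than the 10, and the genes named here were chosen after their values were seen. Of the 66, 20 (30.3%) had a RANKL-higher region, beside 33.7% of all genes, and 15 (22.7%) a WENRC-higher one, beside 24.0%. Myh10, a non-muscle myosin heavy chain, had 26 RANKL-higher regions covering 24068 bp, with 1076 RANKL against 285.3 scaled WENRC tags and folds from 2.31 to 15.83, of which 3 lay within 5 kb of a start. Its GRO-seq value was 8.47 and 8.49 in RANKL, 9.60 and 9.55 in ENRI and 8.96 and 8.98 in WENRC. Gsn, gelsolin, had 2 RANKL-higher regions, both within 5 kb of a start (167 against 71.1 tags), and 0 WENRC-higher ones. Cobl had 7 RANKL-higher and 6 WENRC-higher regions, and Clic5 had 9 and 3, so both directions occurred at 1 gene. On the X chromosome Msn had 16, Pls3 18 and Diaph2 102 RANKL-higher regions, the last with 21 WENRC-higher ones as well. None of these counts has a replicate check.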
